A study of Mus musculus with 6 samples.

Results

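The Wnt genes examined here are 59 of the 23284 genes in the deposited expression table, taken by their symbols: the 19 Wnt ligands, the Rspo, Sfrp and Dkk families of secreted regulators, the Fzd, Lrp5, Lrp6, Lgr and Ror2 receptors, the 3 Dvl adaptors, the Axin1, Axin2 and Apc scaffold genes, Ctnnb1 with its TCF/LEF partners, and Vangl2. RNA was taken at E9.5 from the heart ventricles of tetraploid chimeric embryos, in which the embryo proper grows from the injected ES cells and the tetraploid host gives mainly extraembryonic tissue. The WT group was 3 embryos from wild type ES cells and the KD group was 3 embryos from Tbx5ua -/- ES cells, all on a C57BL/6 background. In the KD cells 3 tandem polyadenylation signals stand in the second exon of both alleles of Tbx5ua, the lncRNA transcribed away from the Tbx5 promoter. Tbx5ua itself was not analysed here. The edited ES cells were picked as single colonies so that they would be clonal. The sources used here do not say from which line each embryo came.

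A Wnt ligand binds a Frizzled receptor together with an Lrp5 or Lrp6 coreceptor. In the beta-catenin branch this holds back the destruction complex, in which Axin and Apc mark beta-catenin for removal, and beta-catenin then acts with TCF/LEF factors on target genes. R-spondins strengthen the signal through Lgr receptors, while Sfrp proteins bind ligands and the typical Dkk proteins bind Lrp coreceptors. A separate branch, used by Wnt5a and Wnt11 with Ror2 and Vangl2, acts on cell shape and polarity. In the embryonic heart the beta-catenin branch is known for its part in progenitor expansion, and the other branch for its part in outflow tract growth.

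The table holds 1 FPKM value per gene for each group and none for single embryos. FPKM counts sequenced fragments, scaled by transcript length and by library size. No SD and no test could therefore be computed here, and the authors' own comparison was not used. Every difference below is a description. Differences are KD minus WT on the scale of log2(FPKM + 1), which understates the change of low genes. A gene was read as expressed where the mean of its group values was at least 1 FPKM, and a difference was counted as past the fold where it reached 1.5-fold, or 0.58 on that scale. Of the 11366 genes that pass the level filter, 388 (3.41%) were past the fold, 233 of them (2.05%) higher and 155 (1.36%) lower in KD. The middle 90% of these genes lay between -0.35 and 0.41, with a median of 0.00. The summed FPKM was 859452 in WT and 877889 in KD, and the depth of each library is unknown. All 8 cardiomyocyte genes on the marker list were expressed, from 8.62 to 12702 FPKM in KD. Most of them are active throughout heart muscle, and those do not tell ventricle from other chambers.

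Of the 59 Wnt genes 27 passed the level filter. Of these 27, 1 was past the fold, Wnt2, which was lower in KD, and 0 were higher. That is a share of 3.70%, close to the 3.41% of all genes. The other 26 lay between -0.41 and 0.39. In KD 15 were above and 12 below their WT value, and their median difference was 0.04. Within 0.2 of no difference were 17 of the 27, or 63.0%, beside 67.6% of all genes kept. Of the 32 genes under the filter, 6 ligand genes were listed at 0 in both groups and 5 genes were at 0 in a single group. A listed 0 need not be a measured absence, since Actc1, the abundant cardiac actin gene, is also listed at 0 in this table.

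**Figure D1:**
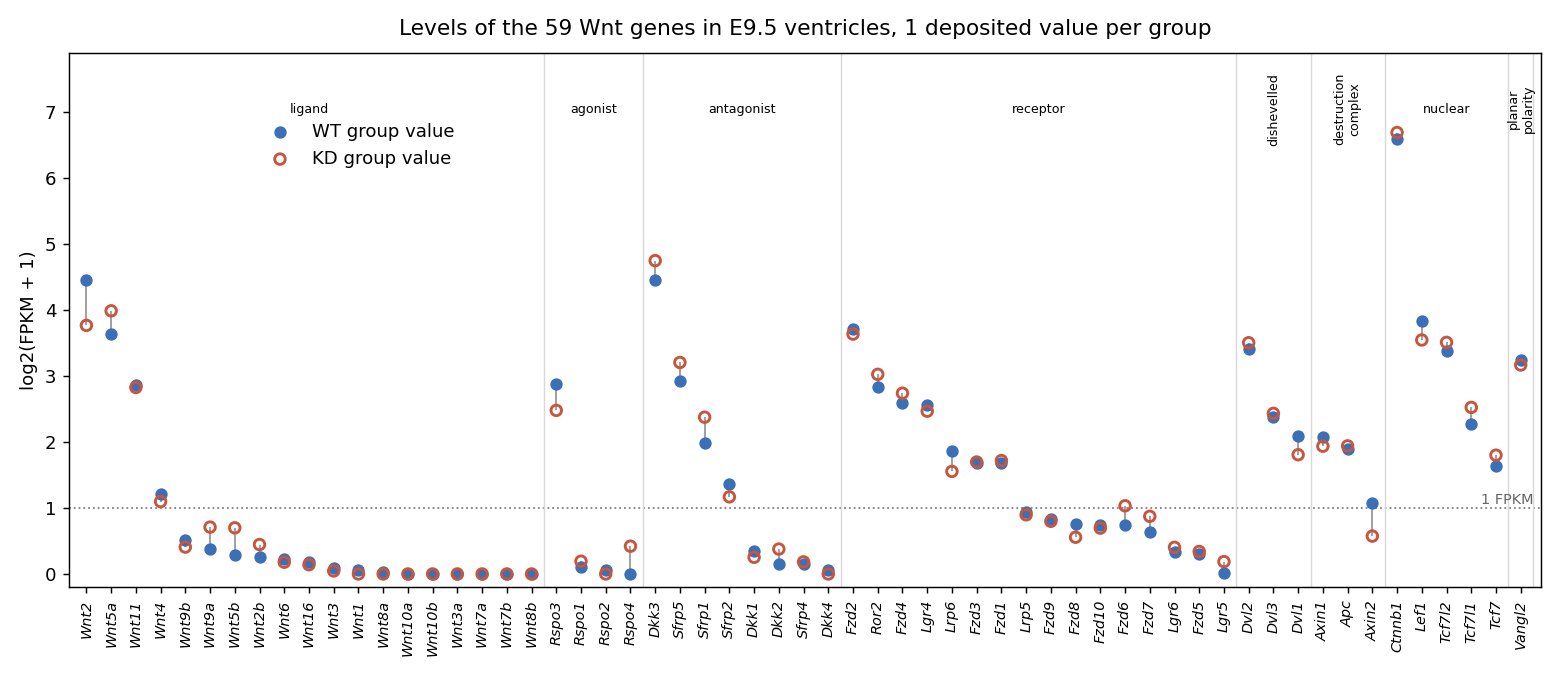
Level of each of the 59 Wnt genes as log2(FPKM + 1), filled points for the WT group value and open points for the KD group value, ordered by role and by level in WT. Most ligand genes lie under the dotted line at 1 FPKM, Ctnnb1 is the highest gene, and the widest gap among the ligands is that of Wnt2.

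Among the ligands Wnt2 was the highest in WT ventricles and the gene with the largest difference. Wnt2 is known from the venous pole of the heart and the progenitors shared by heart and lung. Its group value was 20.95 FPKM in WT against 12.65 in KD, a KD to WT ratio of 0.604 and a difference of -0.69. Of the 11366 genes kept, 110 had a lower difference. In bulk tissue, fewer cells that make a transcript and less transcript per cell cannot be told apart. Wnt2 lies on chromosome 6 from 17988940 to 18030445 on the minus strand of mm10. The 250 bases before its annotated start, chr6:18030446-18030695 on the minus strand, are shown because they belong to the single Wnt gene past the fold, with CG dinucleotides in capitals.

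Wnt2: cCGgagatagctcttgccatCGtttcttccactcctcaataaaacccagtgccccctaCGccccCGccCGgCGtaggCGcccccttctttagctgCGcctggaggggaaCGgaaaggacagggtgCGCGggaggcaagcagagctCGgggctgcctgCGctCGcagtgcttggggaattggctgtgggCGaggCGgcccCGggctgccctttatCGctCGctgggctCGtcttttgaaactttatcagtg

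These 250 bases held 20 CG dinucleotides and 63.6% G and C.

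Wnt5a, the best known ligand of the polarity branch, had 11.5 FPKM in WT against 14.9 in KD, a difference of 0.34. Wnt11, of the same branch and known from the outflow tract, had 6.32 FPKM in WT against 6.10 in KD, a difference of -0.04. Wnt4 was the remaining ligand above the filter, with 1.32 FPKM in WT against 1.14 in KD. Together the 19 ligand genes summed to 41.7 FPKM in WT against 37.0 in KD. Wnt2 held 50.2% of that sum in WT and 34.2% in KD, while Wnt5a held 27.6% in WT and 40.3% in KD. The order of the leading pair was therefore exchanged: the level of Wnt2 was 1.82 times that of Wnt5a in WT and 0.848 times that in KD. Wnt11 kept a share of 15.2% in WT and 16.5% in KD.

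The other 15 ligand genes were under the filter, with no value above 0.637 FPKM. Wnt9b, known from endocardium and cushions, had 0.437 FPKM in WT against 0.326 in KD. Wnt9a had 0.307 and 0.637 FPKM, Wnt5b 0.223 and 0.624 FPKM, and Wnt2b, the ligand most closely related to Wnt2, 0.195 and 0.362 FPKM in WT and KD. Wnt5b shares its locus in the table with Fbxl14, which had 3.46 FPKM in WT, so its value is less certain. Wnt6, Wnt16 and Wnt3 were at or under 0.175 FPKM in both groups. Wnt1 and Wnt8a were at or under 0.0374 FPKM in WT and listed at 0 in KD. Wnt3a, Wnt7a, Wnt7b, Wnt8b, Wnt10a and Wnt10b were listed at 0 in both groups. At these levels no direction can be read without single embryos.

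Of the R-spondins, Rspo3 alone passed the filter. Rspo3 is known to act in the formation of vessels. It had 6.39 FPKM in WT against 4.58 in KD, a ratio of 0.717. Its difference of -0.41 is the nearest to the fold among expressed Wnt genes that did not reach it, and with Wnt2 it is the only expressed Wnt gene outside the middle 90% of all genes. Rspo1, Rspo2 and Rspo4 were at or under 0.339 FPKM in both groups.

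Of the 8 secreted antagonist genes 4 were expressed and 0 were past the fold. Dkk3, a divergent Dkk family member whose action on Lrp coreceptors is less clear than that of Dkk1, was the highest, with 21.1 FPKM in WT against 25.96 in KD, a difference of 0.29. Sfrp5, known from progenitors of the venous pole, had 6.58 FPKM in WT against 8.24 in KD, also a difference of 0.29. Sfrp1 had the largest positive difference of all expressed Wnt genes, 0.39, from 2.97 FPKM in WT against 4.199 in KD. Sfrp2 went the other way, with 1.57 FPKM in WT against 1.2498 in KD. The 8 antagonist genes summed to 32.7 FPKM in WT against 40.3 in KD. Dkk3 made up most of both sums, and 0 of the 4 expressed antagonists lay outside the middle 90% of all genes. Dkk1, Dkk2, Dkk4 and Sfrp4 were at or under 0.299 FPKM in both groups.

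**Figure D2:**
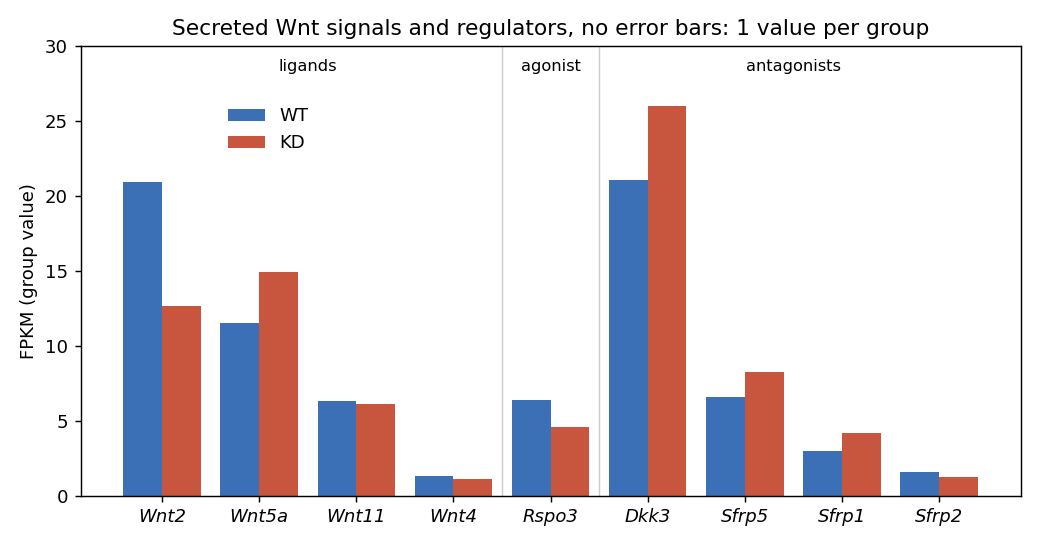
Group values in FPKM, on a linear axis from 0, for the expressed ligands, the expressed R-spondin and the expressed antagonists, with WT and KD bars side by side and no error bars because each group has 1 value. Wnt2, Wnt11, Wnt4, Rspo3 and Sfrp2 are lower in KD, and Wnt5a, Dkk3, Sfrp5 and Sfrp1 are higher.

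Of the 16 receptor genes 7 passed the filter, and their differences lay between -0.31 and 0.19. Fzd2 was the leading Frizzled gene, with 12.1 FPKM in WT against 11.5 in KD. Fzd4, known from vessels, had 5.04 FPKM in WT against 5.69 in KD, and Fzd1 and Fzd3 were close to 2.2 FPKM in both groups. Ror2, the receptor that answers Wnt5a, had 6.16 FPKM in WT against 7.16 in KD, a difference of 0.19, the same direction as Wnt5a. Lgr4, through which R-spondins act, had 4.88 FPKM in WT against 4.54 in KD. Lrp6 had the largest difference among the receptors, -0.31, from 2.66 FPKM in WT against 1.94 in KD, while its relative Lrp5 was at 0.921 and 0.862 FPKM. The Fzd family summed to 25.2 FPKM in WT against 25.7 in KD. The remaining receptors, Fzd5 to Fzd10, Lgr5 and Lgr6, were at or under 1.05 FPKM in both groups.

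Inside the cell, the 3 Dishevelled genes, which carry the signal from Frizzled, were all expressed. Dvl2 led with 9.62 FPKM in WT against 10.4 in KD, Dvl3 had 4.23 and 4.41 FPKM, and Dvl1 had 3.26 and 2.50 FPKM, a difference of -0.28 for the last. Of the destruction complex genes, Axin1 had 3.22 FPKM in WT against 2.83 in KD, and Apc, which shares its locus with a transcript under 0.2 FPKM, had 2.71 and 2.84 FPKM. Vangl2, a core gene of planar polarity, had 8.44 FPKM in WT and a KD to WT ratio of 0.948.

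Axin2, the feedback gene often used as a readout of the beta-catenin branch, was low in both groups. Its group value was 1.11 FPKM in WT against 0.489 in KD. The difference was -0.50, but the mean of 0.798 FPKM was under the filter and the difference did not reach the fold on the log2(FPKM + 1) scale. The KD to WT ratio of these values was 0.442, and the difference was -1.03 with a pseudocount of 0.1 and -1.18 with none, settings applied to Axin2 after its values were seen. Axin2 lies on chromosome 11 from 108920349 to 108950781 on the plus strand. The 250 bases before its annotated start, chr11:108920099-108920348 on the plus strand, are shown because Axin2 is the readout gene of the pathway, again with CG dinucleotides in capitals.

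Axin2: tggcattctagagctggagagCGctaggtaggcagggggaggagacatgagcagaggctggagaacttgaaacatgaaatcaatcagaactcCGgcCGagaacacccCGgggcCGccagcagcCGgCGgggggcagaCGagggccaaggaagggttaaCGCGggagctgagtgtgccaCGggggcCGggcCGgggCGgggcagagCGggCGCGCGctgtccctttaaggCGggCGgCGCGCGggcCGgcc

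They held 24 CG dinucleotides and 69.2% G and C.

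Ctnnb1, which codes for beta-catenin and also serves at cell junctions, was the highest of all 59 genes, with 95.6 FPKM in WT against 103 in KD, a difference of 0.10. Of its DNA-binding partners Lef1 was the highest in WT, with 13.3 FPKM in WT against 10.7 in KD, a difference of -0.29. The other 3 partners had higher values in KD. Tcf7l2 had 9.47 and 10.4 FPKM in WT and KD. Tcf7l1, often a repressor of target genes, had 3.82 and 4.76 FPKM, and Tcf7 had 2.10 and 2.49 FPKM. Sp5, like Axin2 and Lef1 a known target of the pathway, was under the filter, at 0.257 FPKM in WT against 0.446 in KD.

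**Figure D3:**
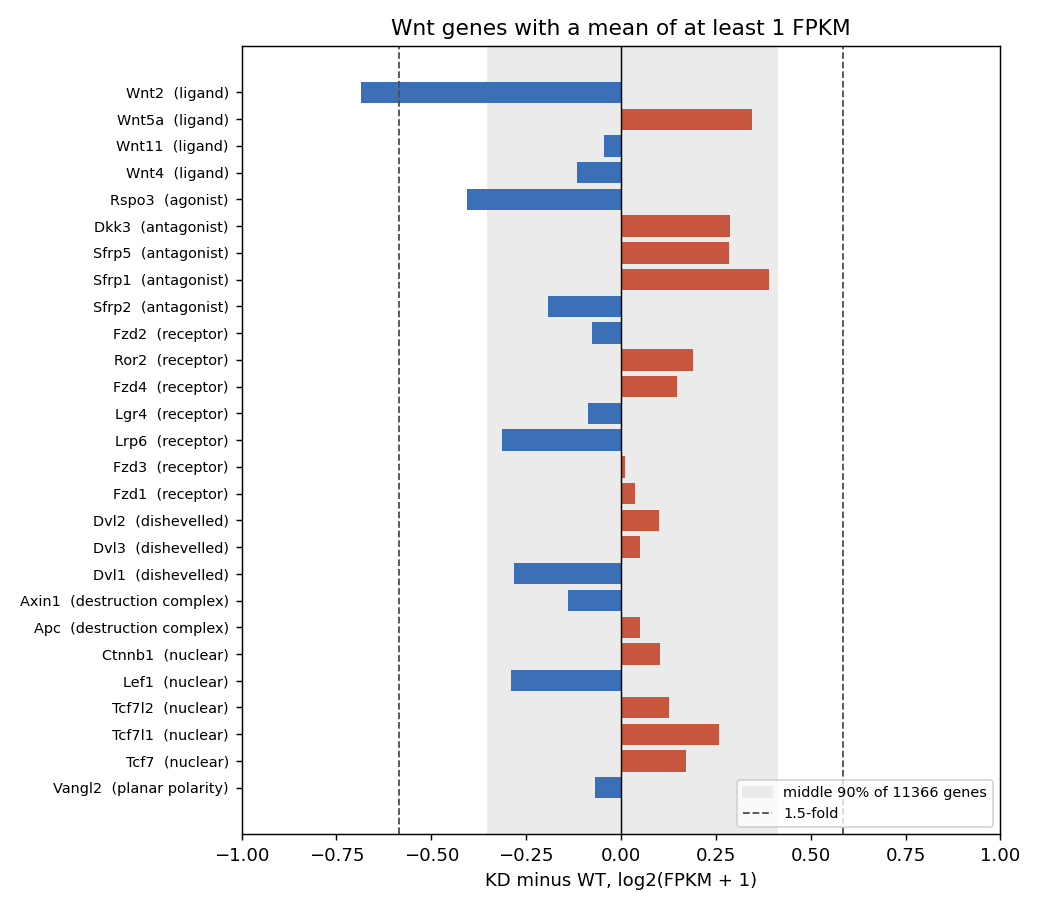
Difference of KD from WT on the log2(FPKM + 1) scale for the 27 Wnt genes with a mean of at least 1 FPKM, with the middle 90% of 11366 genes shaded and the 1.5-fold limits dashed. Wnt2 lies beyond the lower limit, Rspo3 lies just outside the shaded range, and the other 25 lie within it.

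The wider pathway was described with a list of 57 further genes. Of these 41 were expressed and 1 was past the fold, or 2.44% beside the 3.41% of all genes, with a median difference of 0.02. With a pseudocount of 0.1 in place of 1 the count was 7, or 17.1% beside 6.48% of all genes, 5 higher and 2 lower in KD. Over all genes kept, 431 were higher and 305 lower by that setting. With the pseudocount of 1 and a filter at 5 FPKM the count was 0 of 20. The gene past the fold in the first count was Sost, whose product sclerostin blocks Lrp5 and Lrp6, with 2.72 FPKM in WT against 5.86 in KD, a difference of 0.88. In the secretion step, Porcn, which attaches the lipid that Wnt proteins need, had 2.65 FPKM in WT against 1.53 in KD, a difference of -0.53. Wls, the carrier that brings Wnt proteins to the cell surface, had 56.6 FPKM in WT against 51.3 in KD. Frzb, a further Sfrp family antagonist, had 1.63 FPKM in WT against 0.959 in KD. Tle3, a corepressor of TCF/LEF factors, had 3.38 FPKM in WT against 5.39 in KD, a difference of 0.54. The feedback genes Nkd1 and Znrf3 had differences of 0.17 and -0.12, and Notum and Rnf43 were under 0.1 FPKM in both groups.

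Of 22 genes known to respond to the beta-catenin branch in embryos, 16 were expressed. In KD 12 of these were below and 4 above their WT value, with a median difference of -0.15, beside 5598 below and 5768 above among all genes kept. Past the fold were 2, or 12.5%, both lower in KD, beside 3.41% of all genes past the fold and 1.36% past it and lower: Bmp4, with 6.52 FPKM in WT against 2.96 in KD, and Msx1, with 5.60 and 2.92 FPKM. Both genes are also known to respond to other signals, and Msx1 is a target of Bmp4. Both lie in loci shared with another transcript and both have a mean under 5 FPKM, so the count was 0 without shared loci and 0 with a filter at 5 FPKM. A lower limit in place of 1.5-fold was passed where the larger group value of FPKM + 1 was at least 25% above the smaller. With this lower limit the count was 8, or 50% beside 14.3% of all genes, 6 lower and 2 higher in KD. Over all genes kept, 691 were lower and 935 higher in KD by this limit. The target list was chosen with earlier results of these data known. Bmp4 shares its locus with Gm15217, listed at 0 in both groups. Msx1 shares its locus with Msx1as, an antisense transcript with 7.99 FPKM in WT against 5.34 in KD, so the value of Msx1 is less certain. The libraries were made by Smart-Seq2, and reads of these 2 transcripts could not be told apart by strand here. The cell cycle target Ccnd1 had 46.7 FPKM in WT against 60.6 in KD, and Myc had 15.1 and 21.2 FPKM. Mycn had 72.6 FPKM in WT against 53.9 in KD. Bambi, a feedback inhibitor of BMP signals, had 39.5 FPKM in WT against 37.9 in KD.

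**Figure D4:**
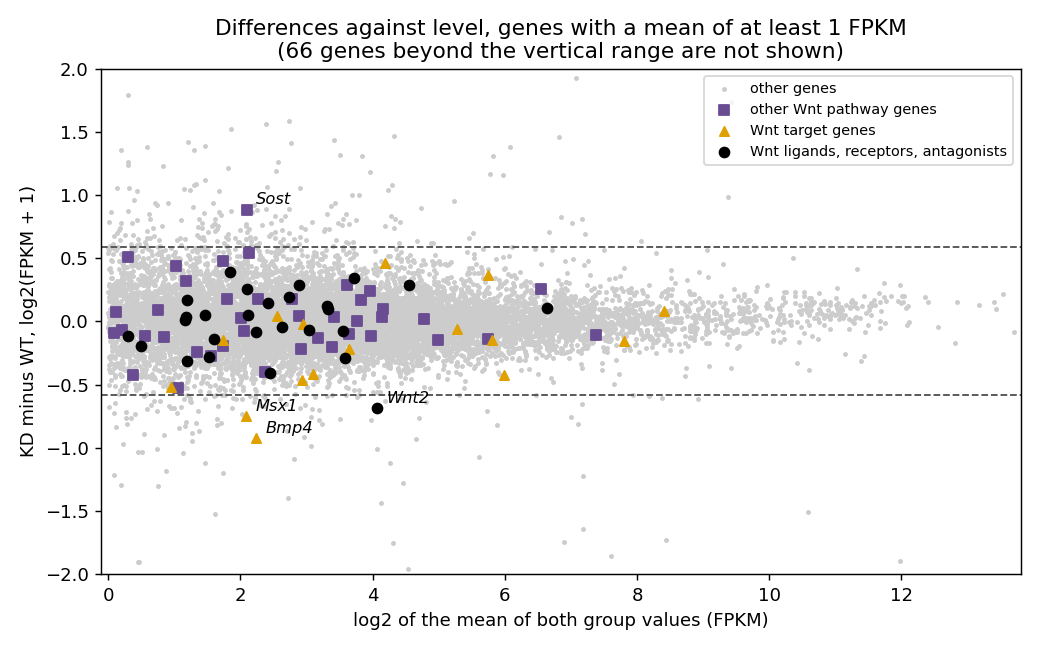
Difference of KD from WT against the log2 mean of the group values for genes with a mean of at least 1 FPKM, with Wnt genes, other pathway genes and target genes marked, and the 1.5-fold limits dashed. Wnt2, Sost, Bmp4 and Msx1 are the 4 marked genes beyond the limits. The differences of 66 genes lie beyond the vertical range of the plot.

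Markers of the cell types present in the ventricle moved unequally between the groups. All 7 epicardial markers were higher in KD, 5 of them past the fold, and their summed level was 50.3 FPKM in WT against 106 in KD. The 8 cardiomyocyte markers had a median difference of 0.03, the 7 endocardial and endothelial markers 0.04 and the 5 erythroid markers 0.11, with 0 past the fold in each. Among the atrial and inflow markers 2 of 6 passed the filter. Nr2f2 was past the fold, with 2.01 FPKM in WT against 4.15 in KD. Under the filter, Nr2f1 had 0.552 and 1.07 FPKM, Vsnl1 0.555 and 1.14 FPKM, and Shox2 0.282 and 0.589 FPKM in WT and KD. Myl4 had 6082 and 5896 FPKM, and Sln was listed at 0 in both groups. Of the 3 expressed outflow and second heart field markers 0 were past the fold. Their differences were -0.52 for Fgf8, -0.22 for Sema3c and -0.15 for Fgf10. Sema3c and Fgf10 lay within the middle 90% of all genes. The summed level for the 6 markers was 11.01 FPKM in WT against 8.34 in KD, and Tbx1 was listed at 0. Fgf8 is also on the target list. Of the neural crest markers only Ets1, which endothelium also expresses, passed the filter, Foxd3 was listed at 0 in both groups, and none of the pharyngeal, hepatic or neural markers passed it. The part of these markers in the differences of the Wnt genes was not tested.

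**Figure D5:**
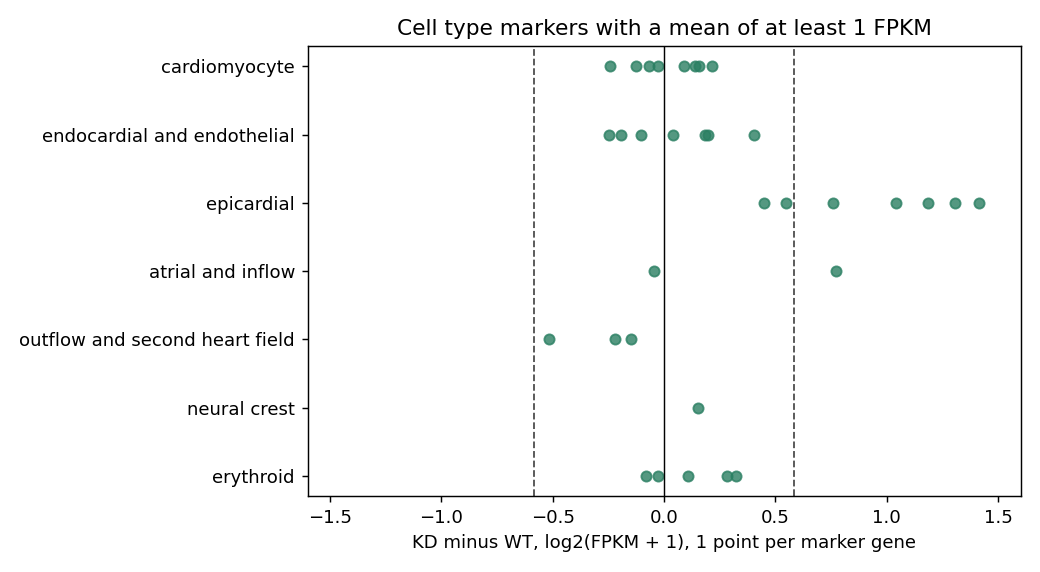
Difference of KD from WT on the log2(FPKM + 1) scale for each marker gene with a mean of at least 1 FPKM, with 1 line per cell type, with the 1.5-fold limits dashed. The 7 epicardial markers all lie to the right of 0, while cardiomyocyte, endocardial and erythroid markers lie on both sides of it.

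The Wnt genes lie on 18 chromosomes and include 4 pairs of ligand genes within 100 kb of each other: Wnt6 and Wnt10a with a gap of 6.70 kb, Wnt10b and Wnt1 with 11.7 kb, Wnt3a and Wnt9a with 16.2 kb, and Wnt9b and Wnt3 with 24.4 kb. None of the 8 paired genes passed the level filter in these ventricles. Because the study turns on lncRNAs that start near coding genes in the opposite direction, starts within 3000 bases on the opposite strand were looked up in the GENCODE M21 annotation. Such a lncRNA was annotated for 11 of the 59 Wnt genes (18.6%), beside 11.1% of all 21951 coding genes: Axin2, Ctnnb1, Dvl3, Fzd6, Fzd10, Lef1, Rspo1, Rspo3, Tcf7l1, Wnt5a and Wnt7b. Wnt2 was not among them. Of these lncRNAs, 4 have a row in the table, none above 1 FPKM, the highest being 5930412G12Rik beside Fzd10 with 0.518 FPKM in WT against 0.670 in KD.

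Promoter windows of RefSeq on GRCm38.p6, from 250 bases before to 50 bases after a start, were at hand for 40 of the 59 genes, 49 windows in all. They were rich in CG dinucleotides, with a median of 27 per window beside 7 over all 32851 windows and 21 over windows of expressed genes. The TCF/LEF motif was searched as CTTTGAA on both strands, with the variants CTTTGAT and likewise CTTTGTA and likewise CTTTGTT. It stood in 7 windows (14.3%), beside 16.9% of all windows. The windows of Wnt2 and Axin2 were not among them. Below, 30 bases around each match are printed in the direction of the gene with the match in capitals, because they show which Wnt genes carry the letters of the pathway's own factors near a listed start. For Lef1, Tcf7l2, Wnt5b and Wnt11 the match lies at only 1 of several annotated starts. The windows with the matches of Fzd7, Lef1 and Tcf7l2 are among the 8 whose last 30 bases were not found in a GENCODE transcript of the gene.

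Dkk1, 117 bases before the start, chr19:30549595-30549624, minus strand: tcctcccaaagCTTTGAAatcccatcccgg
Dkk1, 98 bases before the start, chr19:30549576-30549605, minus strand: tcccatcccggCTTTGTTgtcttccctgag
Fzd7, 130 bases before the start, chr1:59482006-59482035, plus strand: tccacagagaaAACAAAGcgcgctattgga
Lef1, 147 bases before the start, chr3:131156136-131156165, plus strand: caacctcagaaTACAAAGtaggattgcatt
Tcf7l2, 14 bases before the start, chr19:55895296-55895325, plus strand: aaaatatcaggCTTTGTTcttttgattgaa
Wnt11, 51 bases before the start, chr7:98835050-98835079, plus strand: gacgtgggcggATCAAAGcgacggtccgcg
Wnt5b, 71 bases before the start, chr6:119449439-119449468, minus strand: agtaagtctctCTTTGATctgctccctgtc
Wnt3, 19 bases into the transcript, chr11:103774182-103774211, plus strand: cctcaagtggaCTTTGTTccaactattggg

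A T-box motif was searched as GGTGTGA and, overlapping it in part, also as AGGTGTG on both strands, because Tbx5 is a T-box factor. It stood in 4 of the 49 windows (8.16%), beside 8.41% of all windows, each time as AGGTGTG on the opposite strand. For Lef1 and Wnt5b it lies at only 1 of several starts, and the window of Lef1 is again among the 8 not found in a GENCODE transcript. The matches are shown in the same way.

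Vangl2, 243 bases before the start, chr1:172027516-172027545, minus strand: cttcgagCACACCTtcctggccaggtctgg
Lef1, 232 bases before the start, chr3:131112548-131112577, plus strand: tccccacagccCACACCTtagcggccactc
Wnt2b, 152 bases before the start, chr3:104961843-104961872, minus strand: gaggcggccgcCACACCTagggcgccgggg
Wnt5b, 45 bases before the start, chr6:119449413-119449442, minus strand: tgtcggctccaCACACCTgcctgttggtgc

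Of the genes with a match to either motif, Lef1, Tcf7l2, Wnt11 and Vangl2 passed the level filter. None of them was past the fold, but this was already set. Wnt2, the single Wnt gene past it, has neither motif in its window. A match is a run of letters and not a bound site, and the share of windows with a match was near that of all windows for both motifs.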

How the data were processed

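Libraries were made by Smart-Seq2 from 10 ng of total RNA per sample, with 12 cycles of preamplification and 9 of enrichment PCR. Per the labels, TopHat, Bowtie2 and Cuffdiff were used with mm10; versions are not given in the sources used here. The authors deposited 1 Cuffdiff table of FPKM values, 1 for each gene in either group (the KD group under the name KO). Its columns of fold changes, test statistics, p and q hold the authors' own comparison and were not used. The table has 0 columns of single embryos, so no replicate error, paired analysis or test could be computed here. Depth is unknown.

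Computed here were differences on the log2(FPKM + 1) scale, counts past 1.5-fold among genes with a mean of at least 1 FPKM, and the same over all genes as background. The Wnt genes and gene lists were chosen with earlier results of these data known. Genes named with values were those past the fold, the 3 highest in WT in each role, those nearest the fold, and listed pathway or target genes past it. Other genes were named after their values were seen. In the lists, 2 genes were matched by older symbols. Table positions count from 0, so 1 was added to starts. As a check, the last 30 bases of each promoter window were looked for in GENCODE transcripts of the gene and found for 41 of 49. The alternatives were other pseudocounts, filters, scalings and folds. The scripts were tested on simulated data. Python 3.11.15, NumPy 2.4.6, pandas 2.3.3 and Matplotlib 3.10.9 were used.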

Additional observations from a re-analysis of the deposited data

How the results depend on the processing

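No paired analysis was possible because single embryos have no values of their own, and for the same reason no fit without each embryo was run. Among Wnt genes that passed the filter of each setting, the single gene past 1.5-fold was Wnt2 under each pseudocount, filter and scaling, with differences between -0.73 and -0.69. With a fold of 2 the count was 0. A lower limit in place of 1.5-fold was passed where the larger group value of FPKM + 1 was at least 25% above the smaller. With this lower limit the count was 4 (Rspo3, Sfrp1, Wnt2 and Wnt5a), and 14.3% of all genes were past it. The count over all genes, 388, was 736 with a pseudocount of 0.1 (6.48%), 742 with none (6.56%), 196 with a mean of at least 5 FPKM, 258 without shared loci and 137 with a fold of 2. The median difference of the expressed Wnt genes, 0.04, was 0.0495 with a pseudocount of 0.1 and 0.0517 with none, 0.00 without a filter, 0.101 with a mean of at least 5 FPKM, 0.0233 with genes that Cuffdiff marks as having enough reads, 0.0321 less the median of all genes, 0.0145 with equal FPKM sums and 0.0233 without shared loci. Of 200 differences of the 27 Wnt genes with a mean of at least 1 FPKM under these settings, 199 kept their sign, the exception being Fzd3 with equal FPKM sums (-0.01), and all 200 stayed on their side of the fold. Much of this was fixed in advance. The filters select genes and leave each difference as it was, and another pseudocount cannot change a sign. Only the scalings could change a sign, and only pseudocounts and scalings could move a gene across the fold. Axin2, under that filter and so not among the 27, went from -0.50 to -1.03 with a pseudocount of 0.1 and -1.18 with none, past the fold.

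Other pathway genes past the fold, 1 here, were 7 (17.1%) with a pseudocount of 0.1 and 7 with none (Daam2, Dact1, Frzb, Gsk3a, Porcn, Sost and Tle3). They were 0 with a mean of at least 5 FPKM, 0 with a fold of 2 and 8 (19.5%) with the lower limit on FPKM + 1 given above. Target genes past the fold, 2 here, were 3 (18.8%) with a pseudocount of 0.1 and 3 with none (Bmp4, Fgf8 and Msx1). They were 0 with a mean of at least 5 FPKM, 0 without shared loci (Bmp4 and Msx1 share theirs) and 0 with a fold of 2. With the same lower limit on FPKM + 1 they were 8 (50%): Bmp4, Cd44, Fgf8, Msx1, Msx2 and Mycn lower, Ccnd1 and Myc higher in KD. Without the depth, no counting error could be set on genes at low FPKM.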
